A study of Mus musculus with 3 samples.

Results

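The genes described here are 8 genes of cholesterol synthesis and of its regulator SREBP2: Hmgcs1, Idi1, Fdft1, Sqle, Lss and Dhcr7, which encode enzymes, and Insig1 and Srebf2, which encode regulators. They were listed by symbol and not by a cut on a measured value, but earlier results of these data were known when the list was chosen. All 8 were found among 20738 named genes. RNA of whole proximal jejunum, a part of the small intestine, from mice with Sox4 deleted through villin-Cre was labelled with Cy5. RNA of wild-type whole proximal jejunum was labelled with Cy3. Both were hybridised together on each of 3 arrays, with 1 knockout mouse per array. Villin-Cre acts in the intestinal epithelium, so muscle, blood, fat and immune cells of the sample keep Sox4. Age and sex of the mice, and whether several mice gave the wild-type RNA, are not given in the labels. The study thus has 1 group, Sox4 knockout, and its 3 replicates are called arrays 1 to 3 below.

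Cholesterol is built from acetyl-CoA through mevalonate, isoprenoid units, squalene and lanosterol. When sterols in the endoplasmic reticulum are low, the protein SCAP carries SREBP2 to the Golgi, where it is cleaved and released to activate the genes of these enzymes, its own gene and that of the retention protein INSIG1. When sterols are plentiful, INSIG proteins hold SCAP back, so these genes are commonly used as a readout of the sterol state of a cell. The small intestine both makes cholesterol and absorbs it from food and bile.

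SREBP proteins are known to bind sterol regulatory elements, often beside a CCAAT box, the site of NF-Y. Of the 8 genes, 6 have a start in the RefSeq promoter table (mouse build GRCm38.p6), with 8 windows in all, and the 250 bases before each start were searched on both strands. The letters searched were TCACNCCAC for the sterol regulatory element, CCAAT for the CCAAT box and CACGTG for an E-box. They were found in 1.05%, 33.8% and 6.02% of 32851 promoter windows of the same length. Only Hmgcs1 among the 6 genes held the first motif, as TCACCCCAC at chr13:119690214-119690222, 137 to 129 bases before the start. All 6 genes held CCAAT in at least 1 window, and Dhcr7 and Insig1 held the E-box. These counts are by gene and the shares above are by window, so they are unlike units. Dhcr7 has several windows, and not all of them held CCAAT. The motif matches did not overlap each other. Windows of 3 genes are shown as examples, without Dhcr7, which had the highest mean of the 8. The 3 are Hmgcs1, the lowest of the 8 on array 1, Lss, above 0 on every array, and Insig1, the lowest on array 3. All 3 genes are on the plus strand, and capitals mark the matches to the 3 motifs. The windows are chr13:119690101-119690350 for Hmgcs1, chr10:76531355-76531604 for Lss and chr5:28071162-28071411 for Insig1.
Hmgcs1: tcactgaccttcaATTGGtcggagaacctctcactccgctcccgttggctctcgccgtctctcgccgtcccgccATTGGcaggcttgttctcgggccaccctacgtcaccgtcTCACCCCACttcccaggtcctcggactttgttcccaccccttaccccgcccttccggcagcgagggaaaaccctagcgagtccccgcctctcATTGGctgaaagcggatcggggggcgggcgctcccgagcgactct
Lss: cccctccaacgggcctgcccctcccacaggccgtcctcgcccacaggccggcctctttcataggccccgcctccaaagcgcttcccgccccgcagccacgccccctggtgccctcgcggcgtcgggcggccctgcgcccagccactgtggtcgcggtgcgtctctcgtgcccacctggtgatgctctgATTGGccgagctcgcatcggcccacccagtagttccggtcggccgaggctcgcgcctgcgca
Insig1: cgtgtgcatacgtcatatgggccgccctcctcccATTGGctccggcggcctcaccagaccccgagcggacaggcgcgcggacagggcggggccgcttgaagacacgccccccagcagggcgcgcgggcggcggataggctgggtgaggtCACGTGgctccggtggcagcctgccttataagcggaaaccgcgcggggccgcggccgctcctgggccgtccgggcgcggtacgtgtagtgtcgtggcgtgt
A match of letters is a description of the sequence and does not show that a factor binds there. Only exact matches to the letters searched were counted, so a gene without a match may still hold a variant of the element.

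All values below are log2 ratios of Sox4 knockout over wild type, so a value above 0 means more RNA in the knockout. The deposited values state neither the base of the logarithm nor the direction of the ratio. Base 2 was taken as the usual unit, and the direction was taken from the dyes, so that every sign would turn if the values were Cy3 over Cy5. In whole tissue, fewer cells of a type and less RNA per cell cannot be told apart. Means are given with the SD over n = 3 arrays, and 95% intervals come from limma's moderated test of the mean ratio against 0. Adjusted p-values are limma's after Benjamini-Hochberg adjustment across all genes, and the threshold was 0.05. The ratios hold no signal level, so it could not be seen which genes lay near background or whether markers of the jejunal epithelium were present. The 10 epithelium markers had medians of 0.15, 0.08 and 0.16 on arrays 1, 2 and 3.

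Some values outside the cholesterol genes bear on the labels and the makeup of the samples. Sox4 itself had ratios of -0.66, 0.18 and -0.46, so that only arrays 1 and 3 were below wild type for the mean of its 3 features. The features disagreed, with one at -1.21, -0.72 and -0.93, below wild type throughout, another at -0.82, 0.03 and -0.43, and the remaining one at 0.06, 1.23 and -0.02. The 7 smooth muscle markers had medians of -0.46, 0.58 and -0.45 on arrays 1, 2 and 3, and all 7 were highest on array 2. Sex-linked genes differed on every array, with Eif2s3y (Y-linked) at -7.28 ± 0.25 and Xist at 1.71 ± 0.18, so that sex and genotype cannot be told apart. The 8 adipocyte markers had medians of -2.08, -2.22 and -2.01, and 5 of them fell, with adjusted p-values past the threshold that 0.328% of all genes passed. The 6 erythroid markers had medians of -1.65, -1.32 and -0.83, and 2 of them fell by the same threshold. The part of these cell types in the cholesterol gene values was not tested.

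None of the 8 genes passed the threshold, beside 0.328% of all genes. Their adjusted p-values ran from 0.103 to 0.898. Without adjustment, 3 of the 8 had a p under 0.05 (Dhcr7, Lss and Fdft1, all with means above 0), beside 26.3% of all genes, and this share of a list of 8 is close to that background. The median of the 8 means was 0.17, against -0.03 over all genes. It turned to -0.13 when array 2 was left out, so its sign rests on that array, and it turned to -0.08 when each array was centred on reference genes.

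What the 8 genes shared was the array of their highest ratio. All 8 had it on array 2, which held for 33.9% of all genes. Their lowest ratio was not on the same array, with Dhcr7 and Insig1 lowest on array 3 and the others on array 1. On array 2 all 8 were above 0 (46.3% of all genes), on array 3 it was 5 of 8 (49.4% of all genes) and on array 1 it was 3 of 8 (46.7% of all genes). The medians of the 8 were -0.31, 0.76 and 0.18 on arrays 1, 2 and 3, while the medians of all genes were -0.03, -0.03 and -0.00. The high place of array 2 was noticed in the values and is a description. Each array holds 1 knockout mouse, so no test of one array against another is possible, and the 8 genes are not replicates of it. Array 2 also had the lowest of limma's array weights, 0.69 against 1.44 on array 1 and 1.01 on array 3.

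**Figure D1:**
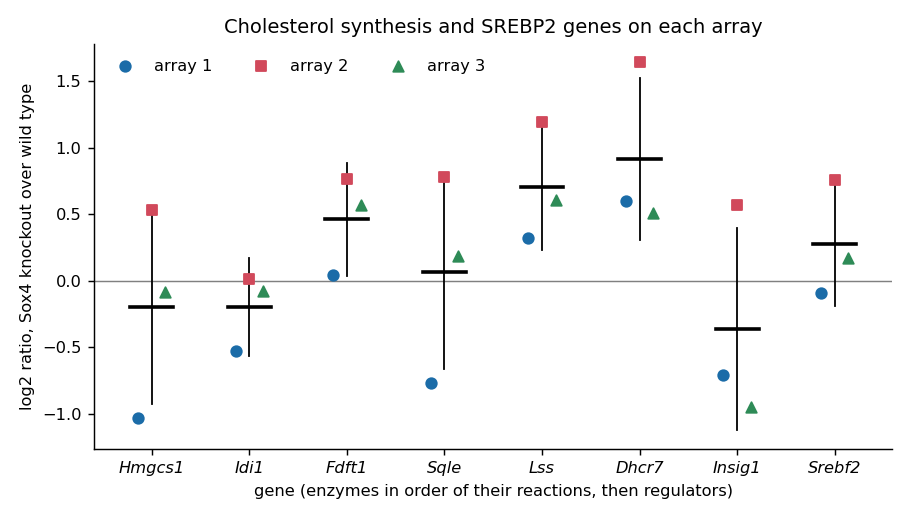
Log2 ratio of Sox4 knockout over wild type (y axis) for each of the 8 genes (x axis) on the 3 arrays (coloured symbols), with the mean (horizontal bar) and limma's 95% interval (vertical line). The array 2 value is the highest of the 3 for every gene, from 0.01 for Idi1 to 1.64 for Dhcr7, and the intervals of Fdft1, Lss and Dhcr7 alone lie above 0 before adjustment.

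Among the early enzymes, Hmgcs1 encodes the cytosolic synthase that makes HMG-CoA, the precursor of mevalonate. Its ratios were -1.03, 0.53 and -0.08 on arrays 1, 2 and 3. Array 1 was lower than wild type and array 2 higher, so the arrays did not share a direction. The mean was -0.19 ± 0.79 (95% interval -0.93 to 0.54, n = 3, limma adjusted p = 0.699), and it was 0.23 without array 1. Idi1 encodes the isomerase that interconverts the isoprenoid units isopentenyl and dimethylallyl diphosphate. It had -0.53, 0.01 and -0.07, and array 1 lay farthest from 0. Its mean of -0.20 ± 0.29 (95% interval -0.56 to 0.17, limma adjusted p = 0.433) had the smallest SD of the 8, and it was -0.03 without array 1.

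Fdft1 makes squalene and Sqle oxidises it to the epoxide from which sterols are formed. Fdft1 encodes squalene synthase, the first step committed to sterols, and had ratios of 0.05, 0.77 and 0.57. All 3 arrays were above 0, with array 1 close to it. The mean was 0.46 ± 0.37 (95% interval 0.04 to 0.89, limma adjusted p = 0.166), a 1.38-fold ratio, and it was 0.21 with arrays centred on reference genes. The gene rests on 2 features of the same transcript that did not behave alike. One had 0.42, 0.39 and 0.49 and was thus even over the arrays, and the other had -0.33, 1.15 and 0.66. The order of the arrays for Fdft1 therefore came from the second feature. Sqle encodes squalene epoxidase, which is regarded as a rate-limiting step after HMG-CoA reductase. It had -0.77, 0.78 and 0.19, with array 1 about as far below 0 as array 2 was above. The mean was 0.07 ± 0.78 (95% interval -0.66 to 0.80, limma adjusted p = 0.898), and it was -0.29 without array 2.

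Lss and Dhcr7 had the highest means of the 8. The measured enzymes that act between them, none of them among the 8, had means from -0.52 for Sc5d to 0.305 for Cyp51. Lss encodes lanosterol synthase, which closes the ring, and had ratios of 0.32, 1.19 and 0.61 on arrays 1, 2 and 3. Its mean was 0.71 ± 0.44 (95% interval 0.23 to 1.18, limma adjusted p = 0.104), a 1.63-fold ratio that missed the threshold. Dhcr7 encodes 7-dehydrocholesterol reductase, the enzyme that forms cholesterol in the last step of one branch. It had 0.60, 1.64 and 0.51, so arrays 1 and 3 were alike and array 2 stood about 1 unit higher. Its mean was 0.92 ± 0.63 (95% interval 0.31 to 1.53, limma adjusted p = 0.103), a 1.89-fold ratio. Without array 2 the means were 0.46 for Lss and 0.56 for Dhcr7, both still above 0. Among all genes of its array, Dhcr7 stood at percentiles 94.5, 99.8 and 92.0 on arrays 1, 2 and 3, and Lss at 82.7, 98.9 and 94.5. Lss, Dhcr7 and Fdft1 were the 3 of 8 genes above 0 on all arrays, beside 23.2% of all genes. With reference genes as the zero point, Lss and Dhcr7 alone of the 8 were above 0 on all arrays and Idi1 was below 0 on all.

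Of the regulators, Insig1 encodes the sterol-responsive INSIG protein that retains SCAP in the endoplasmic reticulum. Its ratios were -0.71, 0.57 and -0.95. It was lower than wild type on arrays 1 and 3 and higher on array 2. The mean was -0.36 ± 0.82 (95% interval -1.12 to 0.40, limma adjusted p = 0.477), and it was -0.19 without array 1, -0.83 without array 2 (limma adjusted p = 0.112) and -0.069 without array 3. Srebf2, the gene of SREBP2 itself, had -0.09, 0.76 and 0.17. Its mean was 0.28 ± 0.44 (95% interval -0.19 to 0.75, limma adjusted p = 0.377). It was 0.039 without array 2 and 0.028 with arrays centred on reference genes. Unlike those of Fdft1, its 2 features kept the same order over the arrays, with -0.22, 0.70 and 0.14 for one and 0.03, 0.83 and 0.21 for the other.

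By their means the genes ran Dhcr7, Lss, Fdft1, Srebf2, Sqle, Hmgcs1, Idi1 and Insig1, from high to low. Neighbours in this order were compared by their differences within each array, with no test. For Dhcr7 and Lss, Srebf2 and Sqle, Hmgcs1 and Idi1, and Idi1 and Insig1, the sign of the difference varied between arrays and its mean was smaller than its SD. Lss was above Fdft1 on each array, by 0.24 ± 0.20, and Fdft1 was above Srebf2 on each array by 0.18 ± 0.20, a mean smaller than its SD. Sqle was above Hmgcs1 by 0.26, 0.25 and 0.27 on arrays 1, 2 and 3, while both moved between arrays by over 1 unit. This pair was the most even of the neighbours compared, and each of its genes rests on 1 feature. How many gene pairs at large are as even was not counted. The SDs over arrays ran from 0.29 for Idi1 to 0.82 for Insig1, with a median of 0.54, against 0.22 over all genes. Hmgcs1, Sqle and Insig1 had SDs at percentiles 97.2, 97.1 and 97.5 of all genes. The arrays therefore limited what could be said of a mean for these 3 genes more than for a typical gene.

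**Figure D2:**
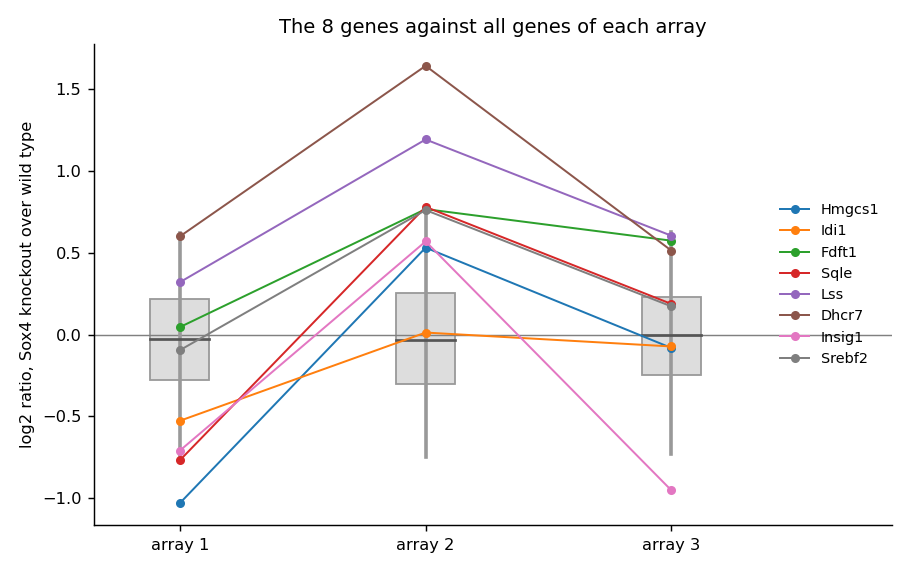
Log2 ratio of Sox4 knockout over wild type (y axis) of the 8 genes (coloured points, joined only to identify a gene) on arrays 1 to 3 (x axis), over all 20738 genes (grey box for the middle 50%, dark line for the median, grey bar for percentiles 5 to 95). The 8 genes spread from -1.03 to 0.60 on array 1 and all lie between 0.01 and 1.64 on array 2, where the median of all genes is -0.03.

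The other enzymes of the pathway were set beside them. Of 14 such genes listed, 11 were measured, and none passed the threshold. Their median mean was 0.01, and their medians on arrays 1, 2 and 3 were -0.32, 0.41 and 0.03, with 9 of 11 highest on array 2. Mvd, the decarboxylase that makes isopentenyl diphosphate, had 0.16, 1.20 and 0.71, above 0 on each array (mean 0.69 ± 0.52, limma adjusted p = 0.128). Sc5d, the desaturase acting just before Dhcr7, had -0.79, -0.20 and -0.55, below 0 on each array (mean -0.52 ± 0.30, limma adjusted p = 0.117). Consecutive enzymes of the last steps thus had ratios on opposite sides of 0. Pmvk, a kinase of the mevalonate steps, had -0.13, 0.72 and 0.37, and Cyp51, the lanosterol demethylase, had -0.32, 0.49 and 0.75. Cyp51 was thus highest on array 3 rather than on array 2. Over all 17 measured enzymes, the 6 described above included, 15 were highest on array 2, beside 33.9% of all genes. Array 1 was lowest for 14 of them, but the share of all genes lowest there was not counted.

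**Figure D3:**
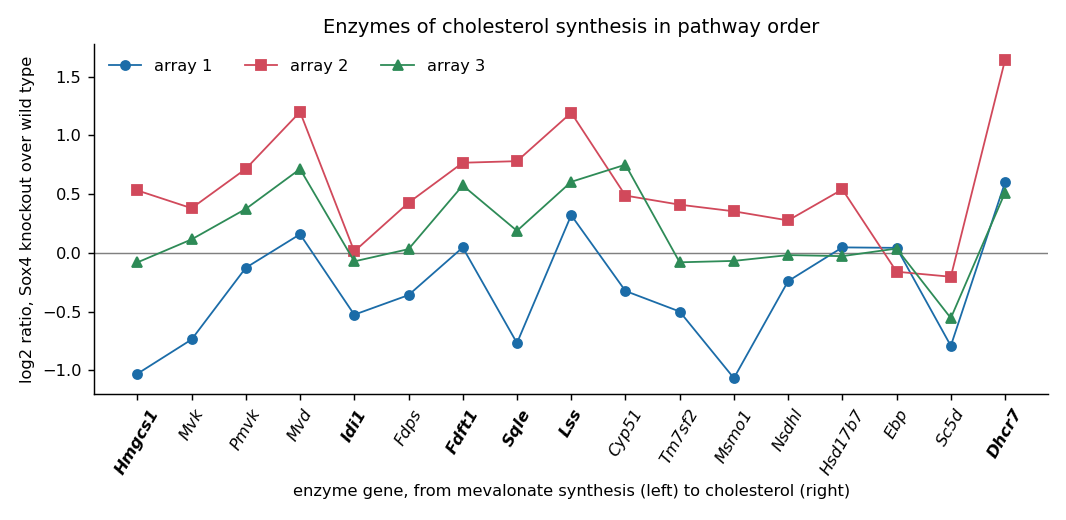
Log2 ratio of Sox4 knockout over wild type (y axis) of 17 enzyme genes of cholesterol synthesis in the order of their reactions (x axis, the 6 enzymes among the 8 genes in bold) on the 3 arrays (lines join genes of 1 array). Array 2 is the highest for 15 of the 17, with Cyp51 and Ebp as the exceptions, and Sc5d is below 0 and Dhcr7 above 0 on all arrays.

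The list of SREBP processing genes did not share the high place of array 2. Besides genes of proteins that retain, carry and cleave SREBPs, it holds Srebf1, the gene of SREBP1, and others such as Rnf139, Ufd1 and Ubxn8. Of 9 measured genes other than Insig1 and Srebf2, 1 was highest on array 2, and the medians on arrays 1, 2 and 3 were -0.02, -0.23 and -0.02. The 1 highest there was Srebf1 itself, with 0.173, 0.225 and -1.035. None passed the threshold. Mbtps2, the protease of the second cleavage in the Golgi, had -0.39, -0.42 and -0.49 and was thus even over the arrays (mean -0.43 ± 0.05, limma adjusted p = 0.0982). Scap had -0.11, -0.24 and -0.02 (mean -0.12 ± 0.11), and Insig2, the INSIG gene less dependent on SREBP, had -0.12, -0.31 and -0.06 (mean -0.17 ± 0.13). Ubxn8, whose part in SREBP processing is not shown here, had a mean of 0.14 ± 0.15. Of these 9 genes, 4 were below 0 on all arrays, beside 27.3% of all genes.

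Genes of sterol uptake and carriage had 6 of 8 measured members highest on array 2 and none past the threshold, with medians of 0.02, 0.36 and -0.04. Npc1l1, the transporter through which enterocytes take up dietary and biliary cholesterol, had 0.44, 0.97 and 0.26, above 0 on each array (mean 0.56 ± 0.37, limma adjusted p = 0.124). Osbpl2 and Osbp, of the oxysterol-binding protein family, had means of 0.30 ± 0.16 and 0.25 ± 0.09. Lipa, the lysosomal lipase that frees cholesterol from its esters, had -0.07, -0.07 and -1.20, with array 3 alone far from 0.

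Genes of the liver X receptors, the sensors of oxysterols, and of sterol export had 4 of 12 members highest on array 2 and none past the threshold. The list's median mean was -0.13, and 6 of the 12 had an unadjusted p under 0.05, beside 26.3% of all genes. Of these 6, 4 had means below 0, while Abcg8 and the apolipoprotein gene Apoa1 (mean 0.41 ± 0.30), both named after their values were seen, lay above. The export pump gene Abca1 had -0.27, -2.81 and -1.52, so that array 2, where the 8 genes were highest, was its lowest. Its mean was -1.54 ± 1.27 (limma adjusted p = 0.121). Abcg1, a related exporter, had -0.59, -0.90 and -0.82 (mean -0.77 ± 0.16, limma adjusted p = 0.0640). Mylip, which targets the LDL receptor for breakdown, had -0.53, -0.40 and -0.87 (mean -0.60 ± 0.24, limma adjusted p = 0.0865). Abcg5, a subunit of the apical sterol exporter, had a mean of -0.57 ± 0.27 (limma adjusted p = 0.0974). Its partner Abcg8 had 0.34, 0.22 and 0.47, above 0 on each array. Both are needed for export, and here the pair lay on opposite sides of 0.

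Fatty acid synthesis, mainly under the related factor SREBP1, had 11 of 14 genes highest on array 2 with medians of -0.19, 0.24 and -0.14. Scd1, the stearoyl-CoA desaturase, fell and was the only gene of these lists past the threshold, with -2.04, -1.95 and -2.50 (mean -2.16 ± 0.29, limma adjusted p = 0.0174). The desaturases Fads1 and Fads2 had means of 0.70 ± 0.18 and 0.63 ± 0.10 (limma adjusted p = 0.0687 for each). Thrsp had -1.10, -0.84 and -0.17. Adipocytes also express Scd1 and Thrsp strongly, and the adipocyte markers given above were lower on the same arrays. Their part in these ratios was not tested.

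In the isoprenoid branches, which take farnesyl and geranylgeranyl groups from the pathway for proteins, ubiquinone and dolichol, 1 of 10 genes was highest on array 2. None of the 10 passed the threshold. Fntb, the beta subunit of farnesyltransferase, had 0.969, 0.964 and 0.999 and just missed it (mean 0.98 ± 0.02, limma adjusted p = 0.0502). Its partner subunit Fnta had -0.40, -0.31 and -0.17 (mean -0.29 ± 0.12, limma adjusted p = 0.186). Nus1 and Ggps1 had means of -0.30 ± 0.12 and -0.25 ± 0.21. The medians of these 10 genes were -0.03, -0.15 and 0.03, near those of all genes.

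**Figure D4:**
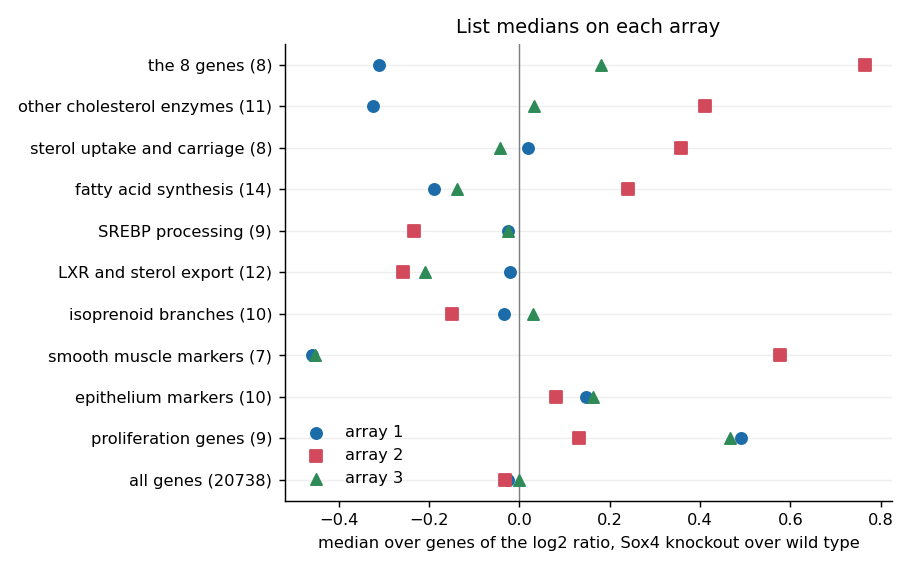
Median over the genes of a list of the log2 ratio of Sox4 knockout over wild type (x axis) on arrays 1, 2 and 3 (symbols), with the number of measured genes beside each list. The 8 genes, the other cholesterol enzymes, the uptake genes, the fatty acid genes and the smooth muscle markers are highest on array 2 (medians of 0.76, 0.41, 0.36, 0.24 and 0.58), while SREBP processing, export, isoprenoid and proliferation genes are lowest there.

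Genes with a like profile over the arrays were looked for among all genes. Likeness was measured as the Euclidean distance of a gene's 3 ratios from the median profile of the 8 genes. The closest of all other genes were Rab27a (-0.27, 0.76 and 0.21), Rln3 (-0.37, 0.74 and 0.21) and Mmp19 (-0.25, 0.68 and 0.12), at distances of 0.05, 0.07 and 0.12. The closest of the 8 was Srebf2, at 0.22, and the farthest was Dhcr7, at 1.31. Rab27a, Rln3 and Mmp19 thus lay nearer than any of the 8, so the profile is not found in the 8 alone. The median distance of the 8 was 0.81, and 5081 other genes lay nearer than that. Genes with ratios near 0 on all arrays can fall within that distance, so this count does not show how many genes share the profile. Over all genes the median distance was 1.02. The distance over 3 arrays depends on the size of the ratios as well as on their order, and closeness on so few values is a description. Proliferation genes, which mark dividing crypt cells, had the opposite order, with medians of 0.49, 0.13 and 0.47 and none of 9 highest on array 2. Among leukocyte markers 6 of 8 were highest on array 2 (medians of 0.12, 0.35 and -0.05), and among acinar and hepatocyte markers 3 of 8 and 1 of 6.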

How the data were processed

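Ratios of the 2 channels of each array were deposited by the authors as log2 values, as read here, for 62976 features on 3 arrays, with no missing value. Neither the background correction, the normalization nor the log base is given in the sources used here. The array medians were 0.007, 0.003 and 0.011. Features were named through GEO's platform annotation, updated by accession, symbol or synonym through a RefSeq gene table (GRCm38.p6) used for names only. In all, 31465 features had 1 symbol, none had several and 31511 were unnamed here. Features of a gene were averaged on each array.

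The mean ratio was tested against 0 with limma 3.58.1 (R 4.3.3, lmFit and eBayes, two-sided, 2 residual and 3.51 prior degrees of freedom), with Benjamini-Hochberg adjustment over 20738 genes. Whether variation among wild-type mice enters this test depends on how many gave RNA, which the labels do not say. No dye swap was made, so dye effects of single genes and genotype cannot be told apart. The number of arrays limits the precision. The script was tested on simulated data. The 8 genes and all lists were chosen with earlier results of these data known. From each pathway list the text names any gene past the threshold and the 4 of smallest p, and 2 or fewer from marker lists. Alternatives were leaving out each array, other centring and scaling, medians of features, single features, no moderation, array weights, platform symbols, a turned sign and natural logarithms. Python 3.11.15 and matplotlib 3.10.9 made tables and figures.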

Additional observations from a re-analysis of the deposited data

How the results depend on the processing

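None of the 8 genes passed the threshold under any alternative run. Over 11 alternatives other than a turned sign, 84 of 88 single gene means kept their direction and side of the threshold, with a lowest adjusted p of 0.0934. Natural logarithms and no moderation could not change the direction of a mean. Medians of features and platform symbols gave the same means, so the share kept overstates how far direction was tried. The other 4 changed sign: Hmgcs1 to 0.23 without array 1 (-0.555 without array 2), and Sqle to -0.29 without array 2 (0.48 without array 1), -0.18 with arrays centred on reference genes and -0.12 with array weights. The median of the 8 genes was -0.078 with that centring and between -0.13 and 0.48 with an array left out. With the ratio turned to wild type over knockout, the median would be -0.17 and the means -0.92 for Dhcr7, -0.71 for Lss, -0.46 for Fdft1, -0.28 for Srebf2, -0.067 for Sqle, 0.19 for Hmgcs1, 0.20 for Idi1 and 0.36 for Insig1. The count of genes past the threshold, 68 as reported (22 higher and 46 lower), was 4 to 66 with an array left out, 1 without moderation and 265 with array weights (118 higher and 147 lower). With centring on reference genes it was 4382 (205 higher and 4177 lower), since that centring moved the median of all gene means to -0.28. All 8 genes remained highest on array 2 with the arrays scaled to the same spread. Neither centring could have changed this, because the median subtracted was lowest on array 2. It was -0.032 for all genes (-0.026 and -0.001 on arrays 1 and 3) and 0.187 for reference genes (0.309 and 0.260). With reference genes as the zero point, 7 of 8 were above 0 on array 2. No paired analysis was possible because the arrays form 1 group. No intensities were used here, so a limit from signal over background could not be set.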
